A study of Mus musculus with 14 samples.

Results

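The 8 keratin genes described here are the 4 used as markers of luminal mammary epithelium (Krt7, Krt8, Krt18 and Krt19) and the 4 used as markers of basal epithelium (Krt5, Krt14, Krt15 and Krt17). They were taken from the deposited table by gene symbol, and each matched 1 of the 56414 genes listed, among 50 genes with a keratin symbol. Bulk RNA-seq had been performed on 14 mammary tumors of female C57Bl/6 mice, with 1 library per tumor. Of these, 8 (4 untreated, 4 treated) were M/D-driven, meaning that they arose in the mouse's own mammary tissue after a 50 mg pellet of medroxyprogesterone acetate (MPA, a progestin) releasing over 90 days, implanted at 6 to 9 weeks of age, and 6 oral doses of 200 µL of 5 mg/mL 7,12-dimethylbenz[a]anthracene (DMBA, a carcinogen). The other 6 (3 untreated, 3 treated) grew from AT3 cells injected under the skin. AT3 is a single mammary carcinoma line, so that all 6 AT3 tumors share an origin. Treated mice received 0.5% nicotinamide (NAM, a form of vitamin B3) in drinking water for 10 days. M/D-driven tumors carried no engineered allele, and no group without tumor was sequenced.

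Keratins are the intermediate filament proteins of epithelial cells, and a filament is built from pairs of a type I chain (here Krt14, Krt15, Krt17, Krt18 and Krt19) and a type II chain (here Krt5, Krt7 and Krt8). In the mammary duct, the inner luminal layer, which holds the milk-secreting and hormone-sensing cells, is marked by Krt8 with Krt18, whereas the outer basal layer, which holds contractile myoepithelial cells, is marked by Krt5 with Krt14. Krt5 and Krt14 are also the chains of the basal layer of skin and other stratified epithelia, Krt15 is known from basal cells of the hair follicle, and Krt17 is induced upon injury.

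The type I genes Krt15, Krt19, Krt14 and Krt17 lie within 129271 bases of chromosome 11 (mm10, minus strand), at chr11:100131759-100135949, chr11:100140815-100145926, chr11:100203164-100207510 and chr11:100256216-100261029, respectively. The type II genes lie on chromosome 15, with Krt7 at chr15:101412402-101430313 (plus strand), Krt5 at chr15:101707070-101712891 (minus strand) and Krt8 at chr15:101996698-102004342 (minus strand). Krt18 is the type I gene placed beside the type II cluster, at chr15:102028216-102032026 (plus strand), 23873 bases from Krt8. These related genes share stretches of coding sequence, which bears on how reads of 75 bases can be assigned. Among the 8, the longest run of identical coding bases (GENCODE vM21) joined Krt14 and Krt17. It lies in exon 6 of 8 of both genes, at chr11:100204114-100204184 and chr11:100257439-100257509, and is shown because at 71 bases it is just shorter than a read.
Krt14 and Krt17, coding strand: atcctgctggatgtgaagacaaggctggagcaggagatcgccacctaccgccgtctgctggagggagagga
No stretch of 75 bases was therefore common to any pair of the 8. With other genes, 21.97% of the 75-base words of the Krt8 transcript were shared with its pseudogene Krt8-ps, 5.91% of those of Krt14 with Krt16, and 5.18% of those of Krt5 with 4 genes led by Krt6a. Krt7, Krt15, Krt17, Krt18 and Krt19 shared none. How the authors' counting treated shared reads is not given in the sources used here, so the levels of Krt8, Krt14 and Krt5 carry that uncertainty.

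The windows from 250 bases before to 30 bases after the RefSeq start (GRCm38.p6) are shown for the adjacent partners Krt8 and Krt18 and for the basal gene Krt5, as their levels are set side by side below. Capitals mark each sequence match to a TATA box (TATAAA), a GC box (GGGCGG), an AP-1 type motif (TGANTCA) or an AP-2 type motif (GCCNNNGGC). Matches were taken on either strand and at any position, and these motifs do not contain one another. Whether a match works as such an element was not tested.
Krt8, chr15:102004313-102004592, minus strand: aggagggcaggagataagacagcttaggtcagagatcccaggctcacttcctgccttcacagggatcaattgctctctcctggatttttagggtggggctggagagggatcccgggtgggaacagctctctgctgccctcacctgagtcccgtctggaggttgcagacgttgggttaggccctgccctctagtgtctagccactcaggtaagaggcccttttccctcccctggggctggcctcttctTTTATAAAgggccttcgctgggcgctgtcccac
Krt18, chr15:102027966-102028245, plus strand: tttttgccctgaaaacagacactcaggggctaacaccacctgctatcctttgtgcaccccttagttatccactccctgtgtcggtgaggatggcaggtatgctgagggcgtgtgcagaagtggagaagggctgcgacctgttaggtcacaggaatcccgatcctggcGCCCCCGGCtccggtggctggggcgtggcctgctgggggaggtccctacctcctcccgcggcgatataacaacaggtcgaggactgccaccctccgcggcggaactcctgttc
Krt5, chr15:101712876-101713155, minus strand: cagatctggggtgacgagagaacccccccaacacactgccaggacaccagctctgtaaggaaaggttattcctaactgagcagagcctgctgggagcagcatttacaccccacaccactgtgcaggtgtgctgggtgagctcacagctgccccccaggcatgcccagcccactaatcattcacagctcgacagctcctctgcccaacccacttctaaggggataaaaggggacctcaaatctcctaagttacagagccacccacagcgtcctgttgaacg
TATAAA was found in the Krt8 window, where it begins 1 base before the annotated start and overlaps a match on the opposite strand, and GCCNNNGGC in the Krt18 window, with its first base 83 bases before the start. None of the 4 motifs was found in the Krt5 window. Of all 32851 mouse windows of this length, 13.1% held TATAAA, 34.7% GGGCGG, 7.46% TGANTCA and 15.4% GCCNNNGGC.

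Reads recovered from the table amounted to 40936868 to 84178009 per tumor, and p values measure the spread between these tumors. Levels are the authors' normalized counts (reads divided by a size factor per tumor), for which M/D-driven and AT3 tumors were scaled apart. Libraries of NAM-treated M/D-driven tumors stood apart in several lists. NAM-treated M/D-driven tumor 1, which the labels place in experiment 2 whereas the other M/D-driven tumors belong to experiment 1 and all AT3 tumors to experiment 3, was the lowest of the 8 M/D-driven tumors for 8 of 8 keratins and for 15 of 15 epithelial markers. Epcam, a surface protein of epithelial cells, was at 932 normalized counts in this tumor and at 16166 to 62247 in the 7 others. This tumor was also the highest of the 8 for 11 of 12 markers of precursor B cells, among them Vpreb1, a part of the pre-B cell receptor, at 67823 normalized counts against 5.19 to 55.5. Comparisons of the keratins that include this tumor are therefore also given without it. NAM-treated M/D-driven tumors 2 and 4 stood apart in other lists. Tumor 2 had a mean log2(normalized count + 1) of 12.74 for hair follicle keratins (0.34 to 5.45 in the 7 others), and tumors 2 and 4 had means of 12.41 and 13.99 for skeletal muscle markers (4.53 to 11.07 in the 6 others). In bulk tumors, fewer cells of a type and less RNA per cell cannot be told apart.

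Among luminal keratins, Krt8 (the main type II chain of simple epithelia) was present in every tumor. In untreated M/D-driven tumors 1 to 4, Krt8 was at 17482, 59042, 16492 and 7168 normalized counts, and in NAM-treated tumors 1 to 4 at 1038, 9004, 49226 and 43375. In AT3 tumors, it was at 39283, 19807 and 23678 without and at 21218, 17599.7 and 16498 with NAM. Krt8 thus varied 8.24-fold between untreated M/D-driven tumors, in which tumor 2 was highest, but 1.98-fold between untreated AT3 tumors.
Krt18, its type I partner, followed the same order of tumors with few exceptions. Values in untreated M/D-driven tumors 1 to 4 were 21722, 62651, 17999 and 10188, and those in NAM-treated tumors 1399.7, 9842, 35050.3 and 34952. AT3 tumors held 13299, 8277 and 11424 without and 10422, 7656 and 8142 with NAM. As for Krt8, untreated tumor 2 and NAM-treated tumors 3 and 4 were the highest of the M/D-driven tumors.

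Krt19, the smallest keratin and a chain of luminal and ductal cells, was the member that separated the models most widely. It was at 7008, 59954, 23452 and 9037 normalized counts in untreated and at 1882, 16902, 61435 and 40622 in NAM-treated M/D-driven tumors. In AT3 tumors, Krt19 was at 471, 209 and 142 without and at 87.5, 105 and 115 with NAM. Each AT3 tumor lay below each M/D-driven tumor, including NAM-treated tumor 1.
Krt7, a type II chain of ductal and glandular epithelium, was at 4613, 28319, 10789.8 and 6485 in untreated and at 572, 13598, 11907 and 9154 in NAM-treated M/D-driven tumors. In AT3 tumors, values were 9555, 6835 and 4865 without and 2779.9, 4902 and 3422 with NAM. The range of Krt7 in AT3 tumors lay within that of M/D-driven tumors.

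Among basal keratins, Krt14 reached the highest level, though Krt5 exceeded it in untreated M/D-driven tumor 2 and NAM-treated M/D-driven tumors 1, 3 and 4. Krt14 varied 1775-fold between the lowest and the highest M/D-driven tumor, against 2338-fold for Krt15. Both lowest values were those of NAM-treated tumor 1. In the 7 others, Krt14 ran from 23904 to 752028 and Krt15 from 1859 to 47626 normalized counts. Untreated M/D-driven tumors 1 to 4 held 116260, 31475, 348348 and 752028 normalized counts of Krt14, and NAM-treated tumors 424, 449937, 23904 and 76242. It ranked as number 2 of all genes in untreated tumor 4, number 3 in NAM-treated tumor 2 and number 4 in untreated tumor 3, but as number 10355 in NAM-treated tumor 1. The AT3 tumors were at 10836, 22216 and 11816 without and at 5979, 11377 and 8121 with NAM.
Krt5, the type II partner of Krt14, was steadier between untreated M/D-driven tumors, with 78408, 51157, 134246 and 183452. NAM-treated M/D-driven tumors held 598, 87876, 31262 and 108719. In AT3 tumors, it was at 3026, 6789 and 3613 without and at 1900.3, 3475 and 2540.2 with NAM. Among untreated tumors, each M/D-driven tumor lay above each AT3 tumor for Krt5 and for Krt14, also on a scale common to both models. On that scale (TMM), the closest values of Krt14 were 30597 in M/D-driven tumor 2 and 25720 in AT3 tumor 2.

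Krt17, which is induced in injured and proliferating epithelium, was at 95747, 11501, 111293 and 124250 normalized counts in untreated M/D-driven tumors. Values in NAM-treated M/D-driven tumors were 119.7, 64392, 11661 and 21295, and those in AT3 tumors 7498, 8840.4 and 6891 without and 4166, 5479.9 and 5169 with NAM. Untreated M/D-driven tumor 2, the highest for the 4 luminal keratins among untreated tumors, was the lowest of them for the 4 basal keratins.
Krt15 had an order of its own. It was at 4438, 1859, 2392 and 10914 in untreated and at 20.4, 6592, 23329 and 47626 in NAM-treated M/D-driven tumors, of which tumors 3 and 4 exceeded all 4 untreated tumors. AT3 tumors were at 3884, 3599 and 1757 without and at 2432, 3540.1 and 1372 with NAM, close to the untreated M/D-driven tumors.

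**Figure D1:**
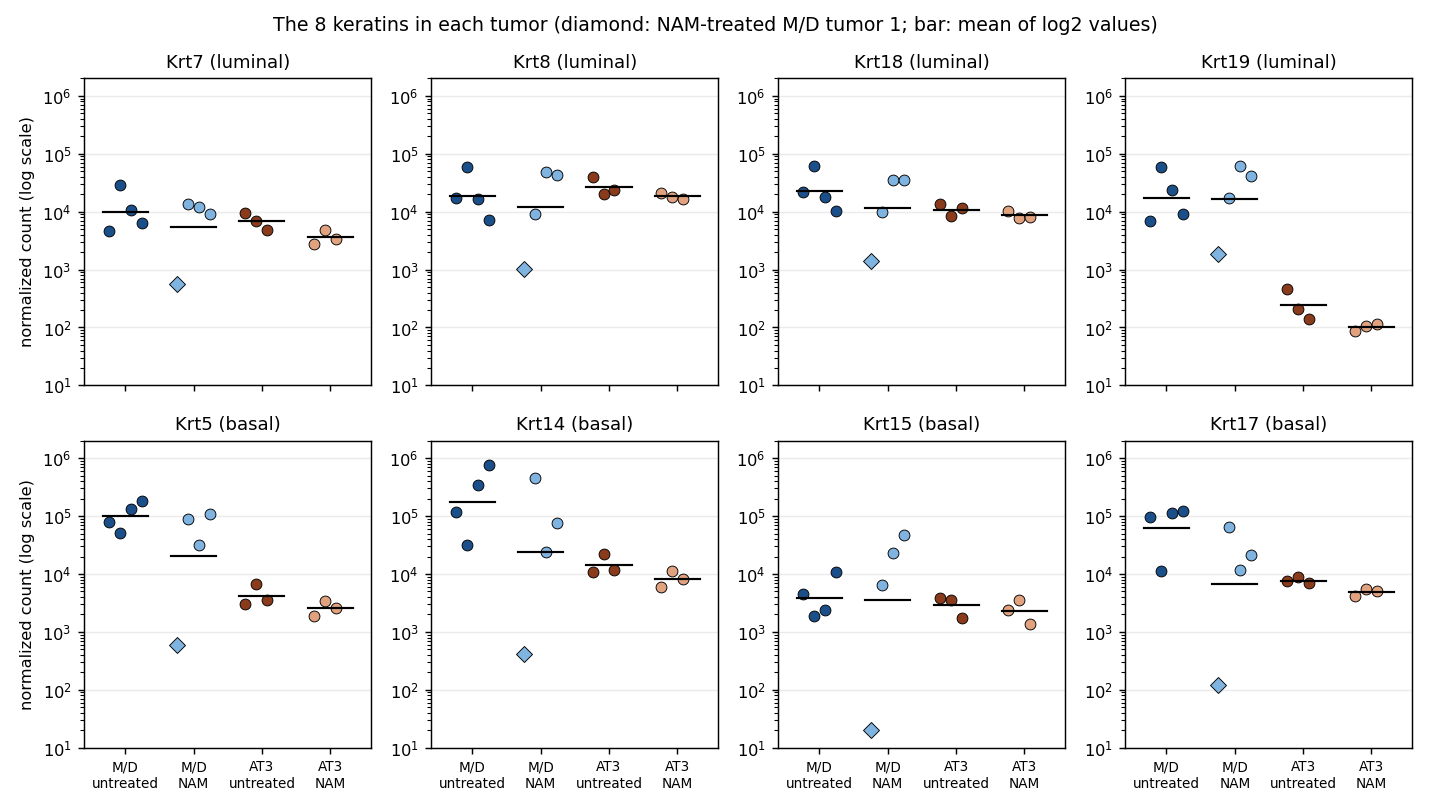
Normalized counts (log scale, each model scaled apart) of the 8 keratins in untreated and NAM-treated M/D-driven and AT3 tumors, with 1 point per tumor and a bar at the mean of the log2 values. NAM-treated M/D-driven tumor 1 (diamond) is the lowest M/D-driven tumor in every panel, and the AT3 tumors lie at 87.5 to 471 for Krt19.

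To set the 8 genes against each other, normalized counts were divided by transcript length. Over the 8 M/D-driven tumors, the median level per kb was highest for Krt14 (56685) and Krt5 (37843), followed by Krt17 (27623), Krt18 (13821), Krt19 (12803), Krt8 (8676), Krt15 (3244) and Krt7 (2436). Without NAM-treated tumor 1, Krt17 (41516) came before Krt5 (39998), and the order of the others was as given. Over the 8 tumors, the ranges of all these genes overlapped. Without NAM-treated tumor 1, those of neighbours in the order still did, so that their order is not larger than the spread between tumors. The highest value of Krt7 (6917) then lay below the lowest values of Krt14 (14078), Krt5 (14230) and Krt17 (7415). Over the 6 AT3 tumors, the order began with Krt8 (10476), Krt14 (6541), Krt18 (6506) and Krt17 (3988), went on with Krt15 (1757), Krt5 (1480) and Krt7 (1193), and ended with Krt19 (81.6), whose highest value of 299 lay below the lowest value of each other member. The level of Krt7 depends on the length taken, as 1374 of 4094 bases of its transcript are coding.

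The luminal share of the 8 keratins per kb ranged from 2.86 to 82.3% in M/D-driven tumors. The highest value was that of NAM-treated tumor 1, in which the 8 keratins took 0.0104% of the reads. Without this tumor, the highest share was 70.2%, in untreated tumor 2. The share was 14.9, 70.2, 10.2 and 2.86% in untreated tumors 1 to 4 and 82.3, 6.78, 64.9 and 35.4% in NAM-treated tumors 1 to 4. In AT3 tumors, it was 68.2, 42.4 and 60.2% without and 68.9, 52.9 and 59.8% with NAM. M/D-driven tumors of both groups thus included some with mostly luminal and some with mostly basal keratins, whereas AT3 tumors differed less from each other. Krt14 had the largest share in 4 of the 8 M/D-driven tumors, reaching 70.5% in NAM-treated tumor 2 and 70.2% in untreated tumor 4. Krt8 had the largest share in 5 of the 6 AT3 tumors. With coding length in place of transcript length, which was tried after the values were seen, the share moved by at most 4.34 percentage points, and 8 of the 14 tumors were above 50% in either case.

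**Figure D2:**
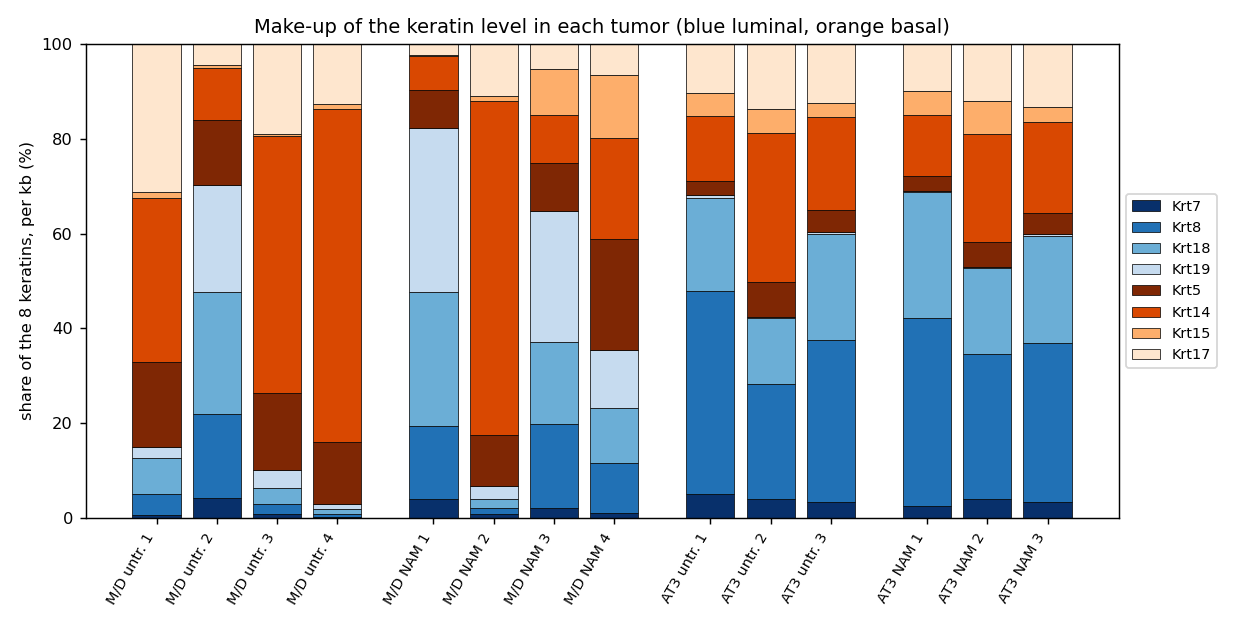
Share of each keratin in the summed level of the 8 per kb of transcript (%), with 1 bar per tumor, luminal keratins in blue and basal keratins in orange. The luminal share runs from 2.86% in untreated M/D-driven tumor 4 to 82.3% in NAM-treated M/D-driven tumor 1, where these keratins took 0.0104% of the reads. Without the latter tumor, the highest share is 70.2%, in untreated M/D-driven tumor 2.

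As a second measure, the mean log2(normalized count + 1) of the basal keratins was subtracted from that of the luminal keratins. This difference was -2.08, 1.88, -1.84 and -3.85 in untreated and 2.81, -2.42, 0.66 and -0.97 in NAM-treated M/D-driven tumors 1 to 4. The means were -1.47 ± 2.41 (SD, n = 4) and 0.02 ± 2.25 (SD, n = 4), a difference of 1.49 that is smaller than the pooled SD of 2.33. Without NAM-treated tumor 1, the treated mean was -0.91 ± 1.54 (SD, n = 3). In AT3 tumors, the values were 0.33, -1.09 and -0.36 without and -0.27, -0.86 and -0.37 with NAM. Their means of -0.38 ± 0.71 and -0.50 ± 0.32 (SD, n = 3 each) differed by -0.12, against a pooled SD of 0.55. In AT3 tumors, this measure and the luminal share did not take the same side. Untreated tumor 3 and NAM-treated tumors 1 to 3 had a luminal share above 50% but a difference below 0. The mean of log2 values gives each gene the same weight, also Krt19, at 87.5 to 471 normalized counts in AT3 tumors. As a score over the members, the difference was not tested.

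**Figure D3:**
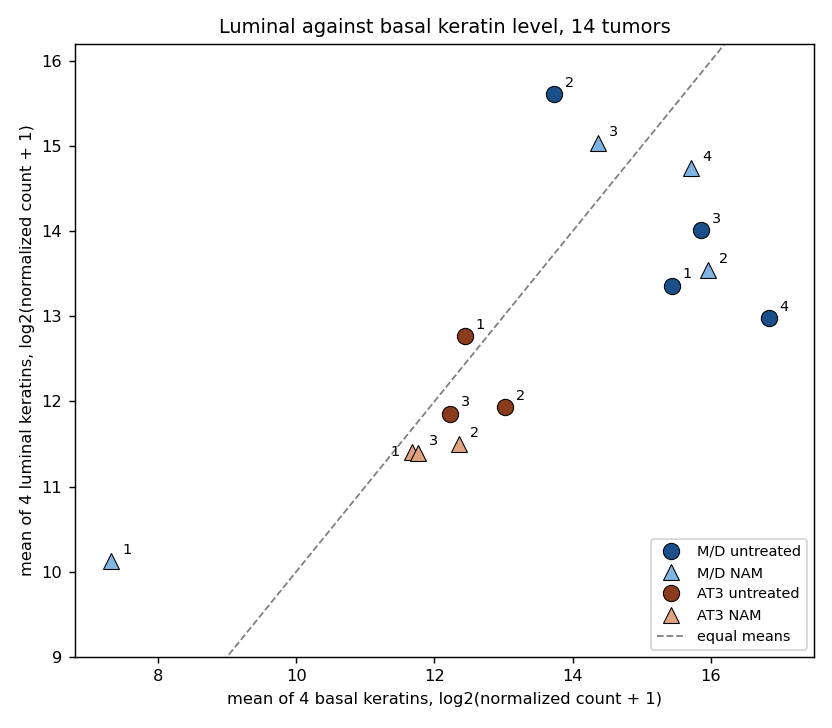
Mean log2(normalized count + 1) of the 4 luminal keratins against that of the 4 basal keratins, with 1 numbered point per tumor and a dashed line where both are equal. Untreated M/D-driven tumor 2 and NAM-treated tumors 1 and 3 lie above the line, and the AT3 tumors lie close to it, at -1.09 to 0.33.

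Together, the 8 keratins took 0.607, 0.513, 1.16 and 1.63% of the reads in untreated M/D-driven tumors 1 to 4. In NAM-treated tumors 1 to 4, they took 0.0104, 1.07, 0.485 and 0.733%, and in AT3 tumors 0.0985 to 0.155%. NAM-treated M/D-driven tumor 1 thus had a smaller share of keratin reads than any AT3 tumor.

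Filament partners were then set against each other across tumors. Krt8 and Krt18 varied together in M/D-driven tumors, with a Pearson r of 0.99 (exact permutation p = 7.44e-05, n = 8) and a Spearman rho of 0.98 (exact permutation p = 0.000397, n = 8) on log2 values. When the 2 tumors farthest from the median of Krt8 were left out, r was 0.98. In AT3 tumors, r was 0.91 (exact permutation p = 0.00417, n = 6) and rho 0.94 (exact permutation p = 0.0167). Krt5 and Krt14 had an r of 0.95 (exact permutation p = 0.000769, n = 8) and a rho of 0.88 (exact permutation p = 0.00724) in M/D-driven tumors. This r was 0.80 without the 2 farthest tumors, and it was 0.99 in AT3 tumors (exact permutation p = 0.00139, n = 6), with a rho of 1 (exact permutation p = 0.00278). As NAM-treated M/D-driven tumor 1 lies far from the rest in each of these pairs, r was also taken over the 7 tumors of experiment 1. It was then 0.97 for Krt8 with Krt18 (exact permutation p = 0.000595, n = 7) and 0.86 for Krt5 with Krt14 (exact permutation p = 0.0109, n = 7). When the 2 of these 7 tumors farthest from the median of Krt8 or Krt5 were left out, r was 0.98 and 0.68 (n = 5), respectively.

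Between the layers, Krt18 and Krt14 had an r of 0.46 (exact permutation p = 0.237, n = 8) and a rho of -0.29 (exact permutation p = 0.501) over all 8 M/D-driven tumors. This positive r rested on NAM-treated tumor 1, without which r was -0.92 (exact permutation p = 0.00456, n = 7) and rho -0.93 (exact permutation p = 0.00675). Leaving out the 2 farthest of these 7 tumors kept r at -0.93. Among the 7 tumors, those with more Krt18 therefore had less Krt14, from untreated tumor 2 on the luminal side to untreated tumor 4 and NAM-treated tumor 2 on the basal side. In AT3 tumors, r was -0.21 (exact permutation p = 0.694, n = 6). In all, 9 relations were computed, 3 of them over the 7 tumors after the values were seen. After Benjamini-Hochberg adjustment over the 9, the adjusted p was 0.00067 for Krt8 with Krt18 over 8 tumors, 0.00231 for Krt5 with Krt14 over 8 tumors and 0.00685 for Krt18 with Krt14 over 7 tumors.

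**Figure D4:**
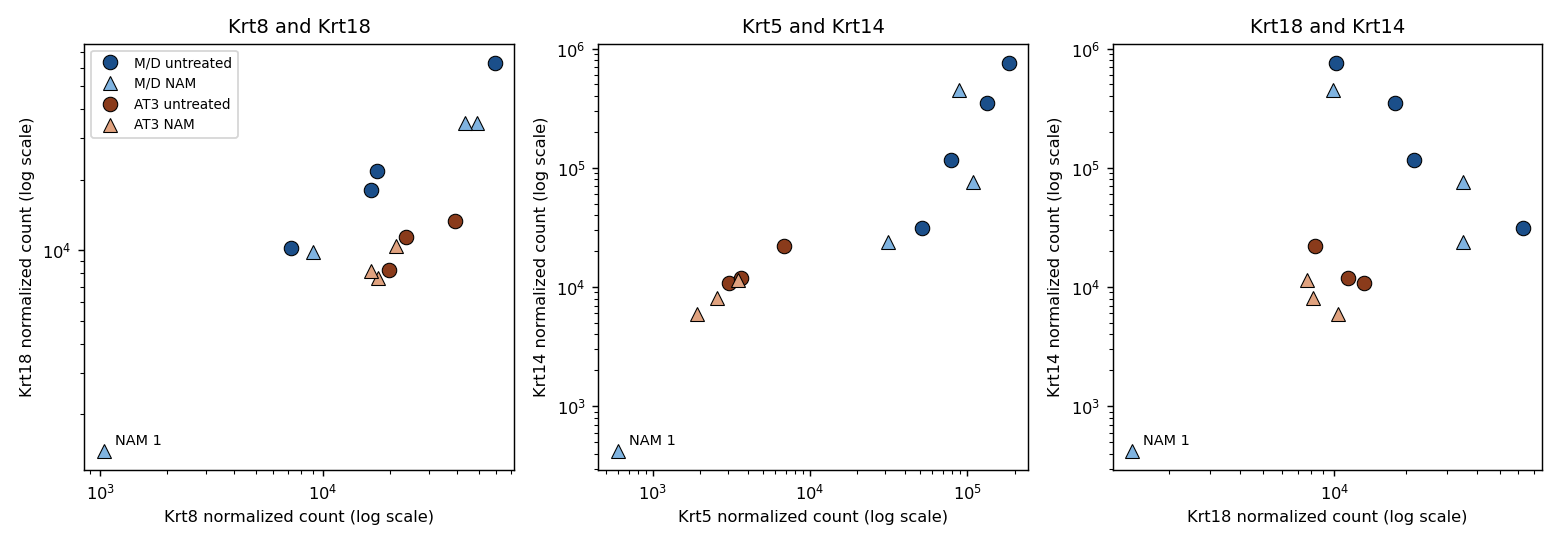
Normalized counts (log scales, each model scaled apart) of Krt18 against Krt8, Krt14 against Krt5, and Krt14 against Krt18, with 1 point per tumor. Partner chains line up in both models, more loosely for Krt5 with Krt14 in M/D-driven tumors (r of 0.86 without NAM-treated tumor 1, n = 7). Krt14 is lower where Krt18 is higher among the M/D-driven tumors other than NAM-treated tumor 1 (r of -0.92, n = 7).

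The proportions of partner chains do not depend on the scaling of a tumor. Per kb of transcript, Krt8 amounted to 0.516 to 1.03 times Krt18 in the 8 M/D-driven tumors and to 1.49 to 2.17 times Krt18 in the 6 AT3 tumors, without overlap. Krt5 amounted to 0.151 to 1.26 times Krt14 in M/D-driven tumors and to 0.216 to 0.246 times Krt14 in AT3 tumors, a range within that of M/D-driven tumors. Neither ratio was tested between models. The latter ratio was thus nearly the same in all AT3 tumors, and it was 0.151 and 0.189 in the M/D-driven tumors with the most Krt14. The AT3 and M/D-driven libraries also differed in how fold changes follow transcript length (Spearman rho 0.34 across 18238 genes, which are not independent), and the part of this in the ratios was not tested.

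The basal keratins of M/D-driven tumors were next set beside the other keratins of stratified epithelia. Krt6a and Krt6b, type II chains of activated and hair follicle epithelium that share 1 row of the table, were at 15793, 789, 223921 and 347708 normalized counts in untreated tumors 1 to 4 and at 4.24, 227780, 1255 and 171 in NAM-treated tumors 1 to 4. Krt16, their type I partner, was at 15929, 43.5, 153879 and 594577 in untreated and at 0, 282539, 385 and 119 in NAM-treated tumors. Both rows were thus high in untreated tumors 1, 3 and 4 and in NAM-treated tumor 2, the 4 tumors with the lowest luminal share of the 8 keratins. Krt10, a chain of the upper layers of the epidermis, was at 95006 to 370221 in untreated tumors 1, 3 and 4, at 2302 in NAM-treated tumor 2 and at 79.3 to 149 in the other 4. The 15 markers of skin and cornified epithelium had a mean log2(normalized count + 1) of 12.63, 13.76 and 14.94 in untreated tumors 1, 3 and 4 and of 11.94 in NAM-treated tumor 2, against 2.78 to 5.83 in the other 4 M/D-driven tumors. Keratins of the hair follicle (22 rows) had a mean of 12.74 in NAM-treated tumor 2 and of 0.34 to 5.45 in the 7 other M/D-driven tumors. Whether cells of skin or of a cornifying tumor epithelium carried these transcripts was not tested.
A contractile marker of the basal layer had another distribution. Acta2, the smooth muscle actin of myoepithelial cells and fibroblasts, was at 181216 normalized counts in untreated tumor 2 and at 153269 and 397128 in NAM-treated tumors 3 and 4, against 19528 to 37638 in the 4 tumors with cornified markers. NAM-treated tumors 3 and 4 were also the highest for Krt15. Krt5 was at 31262 to 183452 in all 7 of these tumors, whether or not cornified markers were high.

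The first comparison was between NAM-treated and untreated M/D-driven tumors. Here, 0 of 8 keratins passed both thresholds in limma (p of at most 0.05, at least 1.5-fold), against 6.22% of the 21700 genes tested in either direction and 3.19% that were lower (658 genes higher and 692 lower, or 917 and 562 with upper quartile scaling). Also, 0 of 8 had an unadjusted p under 0.05, and 0 of 8 passed with edgeR or DESeq2 on recovered reads. All 8 log2 fold changes were below 0 (7 with upper quartile scaling, 6 with edgeR and 5 with DESeq2), with medians of -0.75 for luminal and -2.57 for basal keratins, against 0.01 for all genes tested (0.13 with upper quartile scaling). The widest differences were those of Krt17 (-3.24 ± 1.83, SE, adjusted p = 0.742), Krt14 (-2.86 ± 1.99, adjusted p = 0.781) and Krt5 (-2.28 ± 1.52, adjusted p = 0.774). Krt18 (-0.97 ± 1.04), Krt7 (-0.86 ± 1.04), Krt8 (-0.65 ± 1.23), Krt15 (-0.12 ± 2.19) and Krt19 (-0.04 ± 1.13) differed by less than their SE. The groups overlapped for each of the 8 genes, while 4.43% of the genes tested had groups that did not overlap. Exact two-sided permutation p values ranged from 0.171 for Krt17 to 1 for Krt15 and Krt19, where 4 against 4 tumors allow 0.0286 at least.

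These differences rested in large part on NAM-treated tumor 1. Without it, the log2 fold changes were 0.22 for Krt7, 0.52 for Krt8, 0.04 for Krt18 and 1.01 for Krt19, so that the direction of the 4 luminal keratins turned. Those of basal keratins were -0.58 for Krt5, -0.91 for Krt14 and -1.31 for Krt17, none of which passed the test. Krt15 turned to 2.34 and passed on unadjusted p in limma, though 0 of 8 did on adjusted p. Of all genes, 1112 of the 21489 tested passed both thresholds on unadjusted p in this setting. The values of Krt15 were 6592 to 47626 in NAM-treated tumors 2 to 4 and 1859 to 10914 in untreated tumors. Without NAM-treated tumor 2, the tumor with hair follicle keratins, Krt17 fell by 4.33 on the log2 scale and passed on unadjusted p. Of all genes, 2712 of the 21837 tested passed both thresholds in that setting.
Of the 14 rows of other keratins of stratified epithelia, 3 fell at the same thresholds and 0 rose, namely Krt1 (-9.34 ± 3.17, SE), Krt10 (-6.72 ± 2.56) and Krt12 (-2.77 ± 1.11), each with an adjusted p of 0.734 in limma. Their median was -2.56. Krt1 is the type II partner of Krt10, and Krt12 is known from the cornea. Krt12 was near the floor, with means of 19.6 normalized counts in untreated and 0.913 in NAM-treated M/D-driven tumors. Of the 18 rows of keratin filament partners, mostly desmosome and hemidesmosome genes, 1 fell (Eppk1, -2.29 ± 0.88, adjusted p = 0.734 in limma) and 0 rose. The values of Dsc3 and Dsg3, adhesion proteins of stratified epithelia, were -2.83 and -5.49. Of 15 epithelial markers, 0 passed in either direction, with a median of -1.65, and of 15 skin and cornified markers 2 fell (Dmkn, -6.76, and Lor, -7.40), with a median of -5.65. Of 15 basal and myoepithelial markers, 0 passed, with a median of -0.11. Among other cell types, 3 of 8 adipocyte markers rose (Adrb3 at 1.47, Adipoq at 0.85 and Pparg at 0.86), as did 1 of 8 skeletal muscle markers, Myh4 at 7.30. Their part in the values of the keratins was not tested.
Without NAM-treated tumor 1, Krt1 (-8.10) and Eppk1 (-1.44) were still called, whereas Krt10 (-6.47), Krt12 (-2.59), Dmkn (-4.97) and Lor (-6.89) were not. The median of epithelial markers was then -0.53, with Cdh1 and Ovol2 called lower, that of skin and cornified markers -4.36 and that of basal and myoepithelial markers 0.73. The 3 adipocyte markers and Myh4 were still called.

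The second comparison was between NAM-treated and untreated AT3 tumors. Here, 4 of 8 keratins fell past the same thresholds, against 23.1% of the 19281 genes tested in either direction and 10.9% that fell (2358 genes higher and 2100 lower, or 1461 and 3500 with upper quartile scaling). They were Krt19 (-1.24 ± 0.43, SE), Krt7 (-0.92 ± 0.31), Krt14 (-0.79 ± 0.34) and Krt17 (-0.65 ± 0.21), 2 of each layer. Their unadjusted p in limma was 0.0185, 0.0145, 0.0436 and 0.0128, and their exact permutation p was 0.1, 0.2, 0.2 and 0.1, respectively. Log2 fold changes of the 4 others were -0.72 for Krt5, -0.53 for Krt8, -0.35 for Krt15 and -0.32 for Krt18. Medians were -0.72 for luminal and -0.68 for basal keratins, against -0.05 for all genes tested (-0.26 with upper quartile scaling). After adjustment over all genes, 0 of 8 passed (adjusted p of 0.167 to 0.593 in limma, against 0.00519% of all genes), as with edgeR, whereas DESeq2 passed 3. The groups did not overlap for Krt19 and Krt17, against 22.6% of the genes tested, and both had an exact permutation p of 0.1, the smallest that 3 against 3 tumors allow. For Krt7, 1 treated tumor (4902) lay above 1 untreated tumor (4865).
In these AT3 tumors, fold changes followed transcript length (Spearman rho 0.61 across 16429 genes, which are not independent). With each tumor's trend with length and GC content removed, Krt7 (-1.39) and Krt19 (-0.94) were still called, whereas Krt14 and Krt17 were not, and Krt18 turned to 0.04. Single tumors decided several of these calls. Without NAM-treated AT3 tumor 1, Krt19 alone was called, against 6414 of 19301 genes tested. Without untreated AT3 tumor 1, Krt14, Krt17 and Krt5 were called, against 2267 of 19640 genes. Without untreated AT3 tumor 2, Krt19, Krt7 and Krt8 were called, against 6765 of 18933 genes. Without NAM-treated AT3 tumor 3, Krt14 was no longer called, while 1618 of 19324 genes were. Of 15 general epithelial markers, 4 rose and 0 fell, among the former Cdh1 (E-cadherin, 0.90 ± 0.28, adjusted p = 0.166 in limma) and the splicing factor gene Esrp1 (0.93 ± 0.27, adjusted p = 0.166 in limma). Of 14 keratin filament partners tested, 3 rose, Dsg2 (1.53) and Itga6 among them, and 1 fell, Perp at -0.87. Markers of other cell types also differed between NAM-treated and untreated AT3 tumors. Of 12 leukocyte markers 4 rose and 1 fell, with the macrophage genes Csf1r at 1.04, Adgre1 at 1.05 and Itgam at 1.18. Of 10 fibroblast markers 2 rose, Pdgfrb at 1.44 and Pdgfra at 1.14, and 0 fell. Of 8 endothelial markers 5 rose and 1 fell, with Tek at 1.05, Pecam1 at 0.71 and Cdh5 at 1.39. The part of these cells in the values of the keratins was not tested. With trends in length and GC content removed, 2396 of 16429 genes were called, against 4044 of the same genes before. Values of the epithelial, filament partner and other cell type markers with these trends removed are not given here.

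The third comparison was between models, for untreated tumors and on reads rescaled by TMM factors, with calls at an adjusted p of at most 0.05 and at least 1.5-fold. Here, 4 of 8 keratins were higher in M/D-driven tumors and 0 lower, against 50.3% of the 21725 genes tested in either direction and 29.3% that were higher (6372 genes higher and 4551 lower, or 4245 and 7751 with upper quartile scaling). Krt19 was higher by 5.87 ± 0.72 (SE) on the log2 scale (adjusted p = 0.000438 in limma), Krt5 by 4.28 ± 0.45 (adjusted p = 0.000231 in limma), Krt14 by 3.34 ± 0.93 (adjusted p = 0.0165 in limma) and Krt17 by 2.73 ± 0.75 (adjusted p = 0.016 in limma). For these 4 genes the groups did not overlap, which was the case for 53.5% of the genes tested. The exact permutation p was 0.0571 for each, the smallest that 4 against 3 tumors allow. Without untreated AT3 tumor 1 or tumor 3, Krt14 and Krt17 were no longer called, while Krt19 and Krt5 were. Of all genes, 8139 of 22402 and 8685 of 22062 were then called, respectively. The 4 others were not called, with log2 fold changes of 0.76 ± 0.54 for Krt18, 0.23 ± 0.56 for Krt7, 0.11 ± 0.57 for Krt15 and -0.79 ± 0.62 for Krt8. The median of all genes was 0.16 in this comparison and -0.49 with upper quartile scaling, under which Krt7 and Krt15 also lay below 0, while the same 4 genes were called. Of the luminal genes, Krt19 was thus the 1 that passed with all untreated tumors, while the partners Krt8 and Krt18 had values on either side of 0. With 1 tumor left out, up to 5 keratins were called. The added gene was Krt8, called lower in M/D-driven tumors. Its log2 fold change was -1.34 to -0.31 when single tumors were left out.
Of 15 epithelial markers, 10 were higher in untreated M/D-driven than in untreated AT3 tumors and 0 lower, with a median of 1.47. Cldn3 and Cldn4, claudins of tight junctions, were higher by 6.98 and 6.50, with means of 86.6 and 189 normalized counts in untreated AT3 tumors. Cdh1 was higher by 2.00 and at 6626 to 19039 in AT3 tumors, whereas Epcam was at 18832 to 27578 in AT3 tumors. Esr1, the estrogen receptor gene and a luminal marker, was at 0 to 54.5 in AT3 and at 130 to 799 in M/D-driven tumors. The latter range included 672 in NAM-treated tumor 1, the lowest M/D-driven tumor for epithelial markers. Which cells carried Esr1 was not tested. Trp63, the basal cell transcription factor, was at 488 to 1567 in AT3 tumors and, NAM-treated tumor 1 (47.5) left aside, at 1706 to 7661 in M/D-driven tumors. These levels come from models scaled apart, so that the closest values of Trp63, 1567 and 1706, are not ordered by them. Among other keratins, Krt23 and Krt80 were higher in untreated M/D-driven tumors by 5.55 ± 0.54 and 6.19 ± 0.97. Krt80 was at 10452.5, 973.5, 14111 and 29444 normalized counts in untreated M/D-driven tumors 1 to 4. Of the 15 skin and cornified markers, 13 were higher, with a median of 8.43, and of 15 basal and myoepithelial markers 13 were, with a median of 2.95. The labels place all untreated M/D-driven tumors in experiment 1 and all AT3 tumors in experiment 3, so that model and experiment cannot be told apart.

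**Figure D5:**
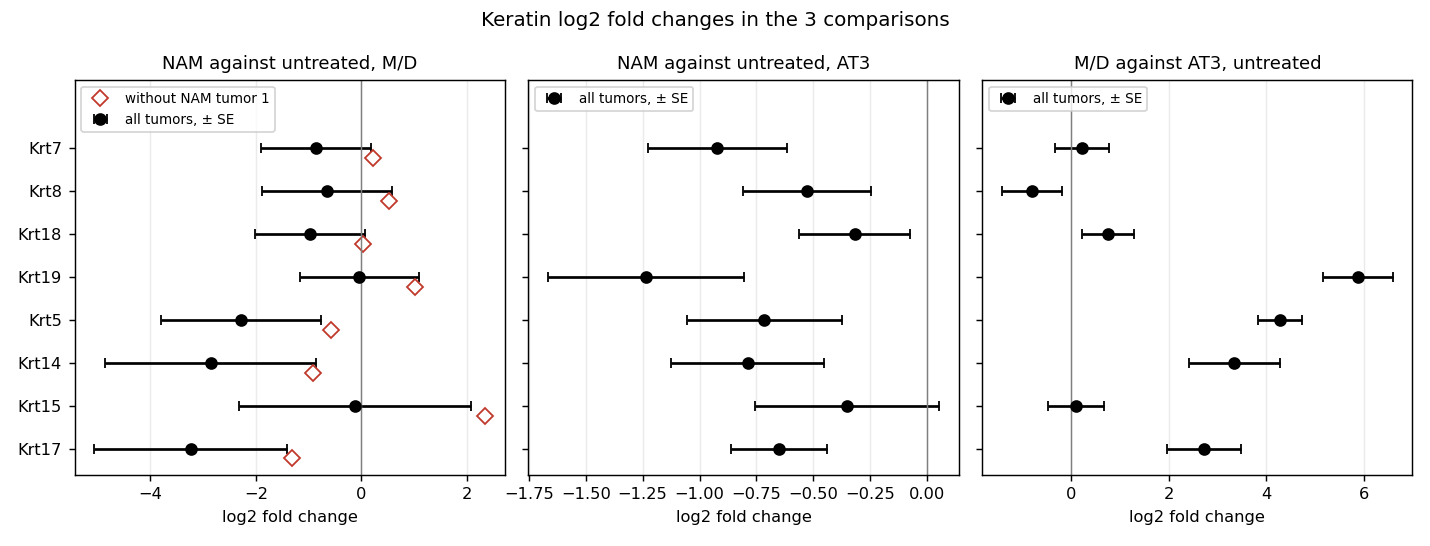
Log2 fold changes of the 8 keratins (points with bars, ± SE from limma) in the 3 comparisons, each on its own horizontal scale, with open diamonds for M/D-driven tumors without NAM-treated tumor 1. Without this tumor, the 4 luminal keratins lie at 0.04 to 1.01 for M/D-driven tumors, and all 8 keratins of AT3 tumors lie at -1.24 to -0.32.

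Finally, an interaction term over all 14 tumors asked whether NAM had unlike effects in both models. It passed the thresholds on p and fold for 0 of 8 keratins, against 14.9% of the 22710 genes tested, and 0 of 8 had an unadjusted p under 0.05 in limma or edgeR. The widest terms, given as M/D-driven minus AT3, were -2.59 ± 2.21 (SE) for Krt17, -2.07 ± 2.43 for Krt14 and -1.56 ± 1.86 for Krt5. Without NAM-treated M/D-driven tumor 1, Krt15 (2.69) and Krt19 (2.25) passed on unadjusted p, but 0 of 8 did after adjustment over all genes. Of all genes, 3801 of the 22538 tested then passed on unadjusted p and fold. A difference of the effect of NAM on keratins between models was thus not detectable with all 14 tumors.

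The genes whose levels followed those of the keratins most closely were looked for among 13762 other genes with a mean of at least 100 normalized counts over the 8 M/D-driven tumors. For the mean of the 4 luminal keratins, these were Spata33, 4732490B19Rik, Specc1, Tceal1 and Fermt2, with an r of 0.98 to 0.99. For the mean of the 4 basal keratins, they were Nectin1, Gm16136, Ak1, Wdsub1 and Kctd15, with an r of 0.99 to 1.00. Over the 7 tumors other than NAM-treated tumor 1, r was 0.94 to 0.95 and 0.88 to 0.97, respectively. These values describe the genes chosen for them and were not tested. Nectin1, an adhesion protein of epithelial cells, was at 119.7 normalized counts in NAM-treated tumor 1 and at 1370.1 to 4210.4 in the 7 others.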

How the data were processed

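RNA had been taken from 14 tumors and sequenced in paired reads of 75 bases, per the labels. The authors mapped reads with STAR 2.4.0 on mm10, counted those on constitutive regions of each Mouse FAST DB gene, and divided them by DESeq2 size factors within each model. The deposited values are thus a normalized signal, neither raw counts nor per length. Each tumor's values fell on steps of a single size (100% within 0.01 reads), from which whole reads were recovered, 40936868 to 84178009 per tumor.

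Groups came from the labels. Log2(normalized count + 1) was fitted by limma 3.58.1 (R 4.3.3) with a mean-variance trend for genes that averaged 10 or more in either group, at the thresholds of the study (p of at most 0.05, taken as unadjusted, and a fold of at least 1.5), and p values were adjusted over all genes tested. Untreated models were compared on recovered reads rescaled by TMM factors, and called on adjusted p. Single genes were also compared by exact two-sided permutation tests in scipy 1.17.1. Fold changes understate those of low genes. Limits from depth and from the number of tumors were not compared.

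The 8 members and all lists were chosen with earlier results of these data known. Named genes are the 8 members, the 3 genes of smallest p in a list, defining markers, and the 5 genes most correlated with the luminal and basal means. Other keratins and markers given tumor by tumor were chosen after their values were seen. Alternatives were other pseudocounts (0.5, 5), filters (none, 50) and scalings (TMM, upper quartile, DESeq2 size factors), edgeR 4.0.16 and DESeq2 1.42.0 on recovered reads, removal of trends with length and GC content (spline, 4 degrees of freedom, principal GENCODE vM21 transcript, a length for 83.9 to 85.2% of genes), replicate blocks, and each tumor left out. Lists without NAM-treated M/D-driven tumor 1 were added after the data were seen. Sequences came from RefSeq (windows, 5 of 8 members matched) and GENCODE. The Krt14 and Krt7 windows are not shown.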

Additional observations from a re-analysis of the deposited data

Results flagged for a closer look

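In groups of 4 tumors, the gap of an extreme tumor to its nearest neighbour was set against the range of the group on the log2 scale, for 8 keratins and the luminal minus basal difference (18 groups). For 2 of them it exceeded Dixon's critical value, which chance does in about 5% of groups. Krt17 in untreated M/D-driven tumor 2 (11501 normalized counts against 95747 to 124250 in the 3 others) had a gap of 0.891 of the range. Krt7 in NAM-treated M/D-driven tumor 1 (572 against 9154 to 13598) had a gap of 0.875 of the range. Groups of 3 AT3 tumors were not looked at in this way.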

How the results depend on the processing

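Between NAM-treated and untreated M/D-driven tumors, 1350 of all genes were called, against 2180 with no filter, 859 with a minimum mean of 50, 2092 with DESeq2, and 784 to 2712 with 1 tumor left out, whereas 0 to 1 keratins were. Here, Krt8 turned to 0.0204 with DESeq2. Krt19 turned to 0.0687 with upper quartile scaling, 0.24 with edgeR, 0.27 with DESeq2 and 0.14 with trends in length and GC content removed. Krt15 turned to 1.97 with edgeR and with DESeq2, and to 0.0465 with trends removed. With 1 tumor left out, values were -1.30 to 0.22 for Krt7, -1.34 to 0.52 for Krt8, -1.51 to 0.0369 for Krt18, -0.67 to 1.01 for Krt19 and -1.37 to 2.34 for Krt15. In AT3 tumors, 4458 of all genes were called, against 2396 with trends removed and 1618 to 6765 with 1 tumor left out. Called keratins went from 4 to 2 with trends removed (Krt18 turned to 0.0414) and to 1 to 5 with 1 tumor left out, when Krt15 was at -0.71 to 0.0135. Between untreated models, Krt7 turned to -0.38 with upper quartile scaling and to -0.87 with trends removed, and Krt15 to -0.0127 with DESeq2 size factors, -0.50 with upper quartile scaling and -0.22 with trends removed. With 1 tumor left out, 2 to 5 keratins and 8139 to 11470 of all genes were called, with Krt7 at -0.28 to 0.61 and Krt15 at -0.38 to 0.46. The interaction for Krt8 turned to 0.58 with edgeR. With 1 tumor left out, it called 0 to 2 keratins and 1838 to 4574 of all genes, and was -0.38 to 1.14 for Krt7, -0.81 to 1.05 for Krt8, -1.19 to 0.35 for Krt18, -2.36 to 0.14 for Krt5 and -1.01 to 2.69 for Krt15. The luminal minus basal difference between untreated models was -1.10, -2.22 to -0.31 with 1 tumor left out and -2.99 from summed counts. Tumors of the same replicate number were not paired, as their deviations correlated at -0.44 to 0.26. With a replicate block, 5 keratins were called in AT3 tumors and Krt15 was at -0.39 between models. The block with trends removed called 730 of all genes in M/D-driven tumors (Krt19 at 0.14, Krt15 at 0.0465) and 2495 in AT3 tumors (Krt18 at 0.0414). Where no construction of the alternative shows it, the cause was not tested. No alternative varied the depth.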
